A study of Triticum aestivum with 3 samples.

Results

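The 184 sequences described here are the leaf miRNAs with wheat (tae) or Aegilops (ata) names, compared between wheat seedlings given DTT+TUDCA and control seedlings. They were chosen by name, as 1 entry per distinct sequence with a sum of at least 20 normalized reads over the 4 pools of these treatments. The table holds 261 such names at any level and 1896 distinct sequences in all, and 1107 of these reach the same floor. Of the 184, 121 carry wheat names and 63 carry the names of Aegilops, the genus of the wild grasses that gave bread wheat its D genome. The plants were bread wheat, Triticum aestivum, and the series looks for miRNAs involved in endoplasmic reticulum stress. Leaf RNA of control and DTT+TUDCA seedlings came from 2 days of treatment. No dose or cultivar was found in the labels. DTT, dithiothreitol, is a reducing agent that disturbs disulfide bonds and so protein folding in the endoplasmic reticulum. TUDCA, tauroursodeoxycholic acid, is a bile acid that can act as a chemical chaperone, a helper of protein folding. A DTT group without TUDCA was sequenced too and is cited beside some results, with the same control pools. Each treatment is 1 sample read as 2 mixed RNA pools assembled from its biological replicates, and the division of replicates over pools is not stated. Since pools may share replicates, they are handled here as if they were repeated readings of 1 sample. Tests were left out for that reason, and each value describes these libraries.

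Plant miRNAs are short RNAs cut from a hairpin precursor. The strand loaded into ARGONAUTE guides the cutting or the translational block of messages that pair with it, and the opposite strand, the passenger, usually decays. Some families are shared by most land plants, often in the same letters in wheat and Arabidopsis, and regulate transcription factors of growth and development. Others are known only from grasses, and many of those have few known targets. The copper group, miR397, miR398, miR408 and, in monocots, miR528, lowers the production of copper-binding proteins such as laccases, copper/zinc superoxide dismutase and plantacyanins.

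The sequences below are cited in the results. They are printed 5′ to 3′ as the table gives them, with T for U, and the capitals mark the seed, bases 2 to 8. The first set is the copper group, whose deposited levels stood above control in both DTT+TUDCA pools.
tae-miR398: tGTGTTCTcaggtcgcccccg
ata-miR398f-5p_L+1R-1: aGGGTCGAactgagaacacat
ata-miR528-5p: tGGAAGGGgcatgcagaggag
tae-miR397-5p: tCACCGGCgctgcacacaatg
tae-MIR397-p5: tTGAGTGCagcgttgatgaac
tae-miR408_L-1: tGCACTGCctcttccctggc

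The next set holds a pair of sequences that were lower relative to the other grass miRNAs, and the reference used for levels within a pool.
tae-miR5200: tGTAGATActccctaaggctt
ata-miR169h-3p_L-1: cAAGTTGTtcttggctagc
tae-miR9674b-5p: aTAGCATCatccatcctaccc

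The last set shows related forms of 1 family that parted between the DTT+TUDCA pools.
ata-miR396e-5p: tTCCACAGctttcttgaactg
ata-miR396a-5p: tCCACAGGctttcttgaactg
tae-miR164: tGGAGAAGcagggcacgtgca
ata-miR164a-5p: tGGAGAAGcagggcacgtgct
ata-miR166a-3p: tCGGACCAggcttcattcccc
ata-miR166c-3p: tCGGACCAggcttcattcctt
ata-miR5168-3p: tCGGACCAggcttcaatccct
ata-miR167a-5p: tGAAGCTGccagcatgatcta
ata-miR167b-5p: tGAAGCTGccagcatgatctga

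The table places the precursors on scaffolds of the wheat assembly TGACv1. That of tae-miR398 lies on scaffold 220641 of chromosome 3B, plus strand, from 245824 to 245943. That of ata-miR398f-5p_L+1R-1 lies on scaffold 250736 of arm 3DL, minus strand, from 53953 to 54046. That of ata-miR528-5p lies on scaffold 321146 of arm 4BL, minus strand, from 56029 to 56134. Both miR397 sequences come from scaffold 486753 of arm 6AS, plus strand, from 26213 to 26305. tae-miR408_L-1 comes from scaffold 577351 of arm 7BL, plus strand, from 4680 to 4866. tae-miR5200 comes from scaffold 592091 of arm 7BS, minus strand, from 110211 to 110303. ata-miR169h-3p_L-1 comes from scaffold 603981 of arm 7DL, plus strand, from 21835 to 21962. No gene annotation of that assembly was at hand.

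Values are normalized reads as the authors deposited them. Most are whole multiples of 1 step per pool, and the steps imply about 420487 and 330651 reads in control pools 1 and 2 and 638382 and 1211765 in DTT+TUDCA pools 1 and 2. The 184 sequences took 59.6% and 60.4% of the control pools and 67.5% and 53.0% of the DTT+TUDCA pools. Families miR2118 and miR2275, which start phased siRNAs in grass anthers, had 5 entries in the table, of which 4 were above 0, and took between 0.00465% and 0.00938% of a pool. The 184 sequences include no member of these families.

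DTT+TUDCA pools 1 and 2 stood apart, and this bears on every sum given below. All but 18 of the 184 sequences (90.2%) were at least 2-fold higher in DTT+TUDCA pool 1 than in pool 2, and 2 (1.09%) were 2-fold higher in pool 2. Over all 1107 entries these shares were 52.6% and 15%. The median ratio of pool 1 to pool 2, with 1 added to each value, was 12.7 for the 184 sequences and 1.64 for the other 923 entries. The control pools differed less and in the other direction, with pool 2 at a median of 1.84 times pool 1.

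The 18 sequences without a 2-fold excess in DTT+TUDCA pool 1 were mostly abundant and of widely shared plant families. They include 12 of the 26 sequences with a mean of at least 1000 normalized reads, and 13 of them are registered in exactly that form. They were ata-miR396e-5p and ata-miR396c-5p (growth-regulating factors), ata-miR167a-5p, tae-miR160 and ata-miR390-5p (auxin response), ata-miR166a-3p (HD-ZIP III), tae-miR319 (TCP factors), 4 sequences of miR172 (AP2-type factors of flowering), ata-miR394-5p, tae-miR164 and ata-miR164b-5p_L+1 (NAC factors), ata-miR156a-5p (SPL factors), ata-miR169e-5p (NF-YA factors), tae-miR167b_R+1_2ss9AC21AC and ata-MIR171d-p3_1ss18CT. Together they took 55.5% and 49.6% of the control pools and 34.6% and 49.7% of the DTT+TUDCA pools. All the others took 4.10% and 10.8% of the control pools and 32.9% and 3.32% of the DTT+TUDCA pools. DTT+TUDCA pool 1 held the largest share of these others, and DTT+TUDCA pool 2 a smaller one than either control pool.

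The split ran between sequences that differ by 1 or a few bases. tae-miR164 had 4662 and 4341 normalized reads under control conditions, and DTT+TUDCA gave 5227 and 6639. ata-miR164a-5p, which differs from it by A21T (positions from the 5′ end), was at 314 and 445 and then at 1469 and 162. The first form was alike in all 4 pools, and the second was high in DTT+TUDCA pool 1 alone. ata-miR166a-3p was at 25131 and 20344 in control and 16211 and 30236 with DTT+TUDCA. ata-miR166c-3p, with C20T and C21T, was at 288 and 433 and then at 1867 and 250.4. ata-miR5168-3p shares their seed and differs from ata-miR166c-3p by T16A and T20C. It was at 522 and 776 in control, against 4617 and 358 with DTT+TUDCA. The 22-base ata-miR167b-5p, at 133 and 392 and then 2024 and 124, and the 21-base ata-miR167a-5p, at 20029 and 18306 and then 20386 and 40547, also parted. So did ata-miR396e-5p, at 199626 and 146823 and then 107299 and 121577, and ata-miR396a-5p, at 3667 and 6052 and then 44856 and 3300. The seeds of the 184 sequences number 160, of which 15 occur in more than 1 sequence, and sequences with 1 seed were found on both sides of the split.

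**Figure D1:**
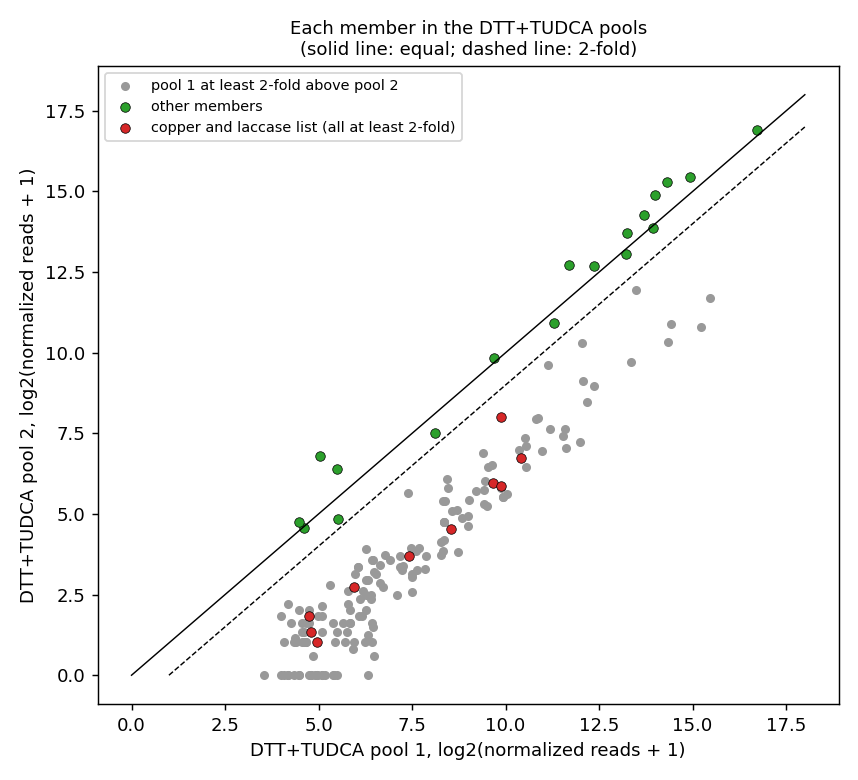
Each of the 184 sequences by its level in DTT+TUDCA pool 1 (horizontal axis) and pool 2 (vertical axis), as log2 of the normalized reads plus 1. The grey and red points lie below the dashed line, at least 2-fold higher in pool 1, and the 18 green points lie near the solid line of equality or above it.

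**Figure D2:**
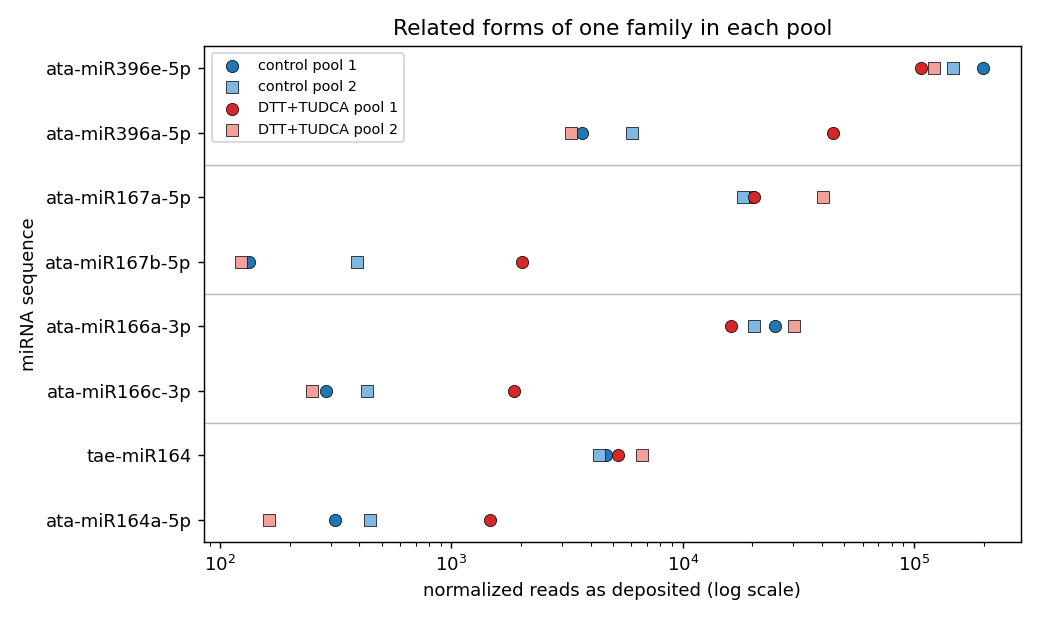
Deposited normalized reads (log scale) of 4 pairs of related sequences in the 2 control and the 2 DTT+TUDCA pools. In each pair the upper form differs by less than 2-fold between the DTT+TUDCA pools or is higher in pool 2, and the lower form has DTT+TUDCA pool 1 as its highest value, such as 1469 against 162 to 445 for ata-miR164a-5p.

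The table also names miRNAs of families known from crucifers (miR158, miR161, miR163, miR173, miR824 and miR846, a list written after the values were seen). All 6 families were listed, with 62 entries above 0 in at least 1 of the 4 pools. They took 8.97% and 9.47% of the control pools and 4.13% and 8.29% of the DTT+TUDCA pools, lowest in the pool where most wheat and Aegilops sequences were highest. Their part in the difference between pools was not tested.

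On the sums of the 2 pools as deposited, with 1 added to each sum, 138 of 184 sequences (75%) were at least 2-fold higher with DTT+TUDCA than in control, and 1 (0.543%) was 2-fold lower. The background over all 1107 entries was 41.4% higher and 6.05% lower. The median log2 ratio was 1.67 for the 184 sequences and 0.66 for all entries. The shift rested on 1 pool. Without DTT+TUDCA pool 1 the median turned to -1.10, with 21 higher and 96 lower, and without pool 2 it was 2.60, with 159 higher and 0 lower. In bulk leaf RNA, more of a miRNA per cell and more cells that hold it cannot be told apart. Asking in addition that both DTT+TUDCA pools lie above both control pools left 23 sequences (12.5%, background 13.6%), and the mirror rule left 1 (0.543%, background 5.24%). Of those 23, 9 belong to the copper and laccase list. Only 4 of these 9 had a control sum of 20 or more. The rest had control sums under 10 and passed the floor only through DTT+TUDCA. Their being higher was fixed in advance, so only the 4 bear on this list.

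Scaling to the 184 sequences themselves sets the shared shift aside. Each pool was divided by the median ratio of its values to the geometric mean of the 4 pools, over the 126 sequences above 0 in all of them. The factors were 0.534 and 1.11 for control and 4.56 and 0.370 for DTT+TUDCA. A scaled value says where a sequence stands among the wheat and Aegilops miRNAs of its pool, and not how much of it a leaf holds. Between the scaled DTT+TUDCA pools, 114 sequences outside the 18 lay within 2-fold, and 0 of the 18 did. The 0 was fixed in advance by the factors, since the 18 were set apart by their pool ratio. The others lay close in part because the factors are medians mostly over them, so their closeness is no evidence for the scaling. For the 18, scaled values are not read as a comparison. After scaling, 43 of 184 were 2-fold higher (23.4%, background 21%) and 12 were lower (6.52%, background 11.6%). With pools that did not overlap these were 29 (15.8%, background 9.03%) and 6 (3.26%, background 7.14%). The scaled background applies the factors of the 184 sequences to all 1107 entries. The other 923 entries had a median ratio between the DTT+TUDCA pools of 1.64, so these factors can move their pools apart. Among those 923, higher calls with pools apart went from 13.9% as deposited to 7.69% scaled, and lower calls from 6.18% to 7.91%. The scaled shares of the 184 are therefore not read as above or below background.

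Many of the higher calls rest on few control reads. The floor let in 76 sequences with less than 20 normalized reads in the summed control pools, and 24 of the 29 are among them. Of these 76, 49 had a control sum under 10 and could pass the floor only with a higher DTT+TUDCA sum. As deposited 70 of the 76 were 2-fold higher and 6 were not. Of the 108 sequences with at least 20 control reads, 8 were higher and 5 lower after scaling, with pools apart for 5 and 4 of them. Of all 184, 17 were listed at 0 in both control pools. Values worth 1 read are nearly absent from the table (2 to 7 a pool), so a listed 0 sets no upper limit, and no fold is given for any 1 of these. The counts and medians over lists do include them at their fitted ratios, which depend on the 1 added to each sum.

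All 10 named sequences of the copper and laccase list passed the floor. All 10 were 2-fold higher as deposited (background 41.4%) and after scaling (background 21%). Both DTT+TUDCA pools lay above both control pools for 9 as deposited (background 17.1%) and 8 after scaling (background 13.1%). For every list below the background is 41.4% higher and 6.05% lower as deposited, and 21% and 11.6% after scaling. Only 4 of the 10 had 20 control reads or more, and those 4 (tae-miR398, ata-miR398f-5p_L+1R-1, ata-miR528-5p and tae-miR408_L-1) carry the comparison. Their median log2 ratio was 4.83 as deposited and 2.97 after scaling. Of the other 6, 3 were listed at 0 in both control pools. Each of the 6 had a control sum under 10 and could pass the floor only with a higher DTT+TUDCA sum. Without DTT+TUDCA pool 1, 8 of 10 were higher as deposited.

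tae-miR398, whose family pairs with messages of copper/zinc superoxide dismutase, had 14.1 and 20.4 normalized reads under control conditions, from 9 and 12 reads. With DTT+TUDCA it had 812 and 60.8, from 762 and 118 reads. The exact 95% Poisson intervals, which cover counting error only, were 6.46 to 26.8 and 10.5 to 35.6 in control and 755 to 872 and 50.4 to 72.9 with DTT+TUDCA. Both DTT+TUDCA pools were above both control pools beyond counting error. The sums differed 24.6-fold, and 3.46-fold without DTT+TUDCA pool 1. Scaled, the control pools were at 26.5 and 18.3 and the DTT+TUDCA pools at 178 and 165, a 7.50-fold ratio of the sums. The DTT+TUDCA pools, 13.1-fold apart as deposited, nearly coincided after scaling.

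ata-miR398f-5p_L+1R-1, a 5′ arm of a miR398 precursor, was at 12.6 and 8.49 in control, against 1369 and 105 with DTT+TUDCA. It had only 8 and 5 reads in control, so its folds divide by few reads. Scaled, it was at 23.5 and 7.64 and then 300.2 and 285, an 18.2-fold ratio with its lowest DTT+TUDCA pool 12.1-fold above its highest control pool. The other miR398 passenger sequences were low. tae-MIR398-p5 was listed at 0 and at 3.39 in control and was at 29.8 and 1.03 with DTT+TUDCA, with overlapping pools. ata-miR398g-5p was listed at 0 in both control pools and was at 25.6 and 2.58 with DTT+TUDCA.

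ata-miR528-5p, whose family in rice is known to target ascorbate oxidase, was at 17.3 and 11.9 in control, against 935 and 57.2 with DTT+TUDCA. It too had few reads in control, 11 and 7. Scaled, it was at 32.3 and 10.7 and then 205 and 155, an 8.20-fold ratio with pools apart by at least 4.79-fold. Control pool 1 and control pool 2 moved these scaled log2 ratios: ata-miR398f-5p_L+1R-1 was at 5.17 without the first and 3.61 without the second, and ata-miR528-5p at 4.01 and 2.46. Its partner from the same precursor, ata-miR528-3p, was listed at 0 in both control pools and was at 26.6 and 1.55 with DTT+TUDCA.

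The miR397 family regulates laccases, and its sequences were nearly unread in control. The table places tae-MIR397-p5 on the 5′ arm of the precursor and tae-miR397-5p on the 3′ arm, so they are opposite arms. tae-MIR397-p5 was listed at 0 and at 5.09 in control, the latter from 3 reads, and was at 372 and 22.2 with DTT+TUDCA. tae-miR397-5p was listed at 0 and at 3.39, from 2 reads, and was at 169 and 11.9. After scaling the lower DTT+TUDCA pool of each was 13.1-fold and 10.5-fold above control pool 2, folds that divide by those 3 and 2 reads. Both sequences could pass the floor only through DTT+TUDCA, so their being higher was fixed in advance and is no support. tae-miR408_L-1, whose family targets plantacyanins and laccases, was the most abundant of the group in control and had the smallest ratio. It was at 115 and 193 in control, against 940 and 258 with DTT+TUDCA, 3.88-fold on the sums. Its deposited log2 ratio of 1.96 was 0.74 without DTT+TUDCA pool 1, under the 2-fold limit. Scaled, it was at 215 and 174 and then 206 and 699, and the pools overlapped. Its scaled log2 ratio was 1.22, and 0.084 without DTT+TUDCA pool 2. Its partner tae-MIR408-p5_1ss20GA was listed at 0 in both control pools and was at 60.7 and 5.67 with DTT+TUDCA.

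**Figure D3:**
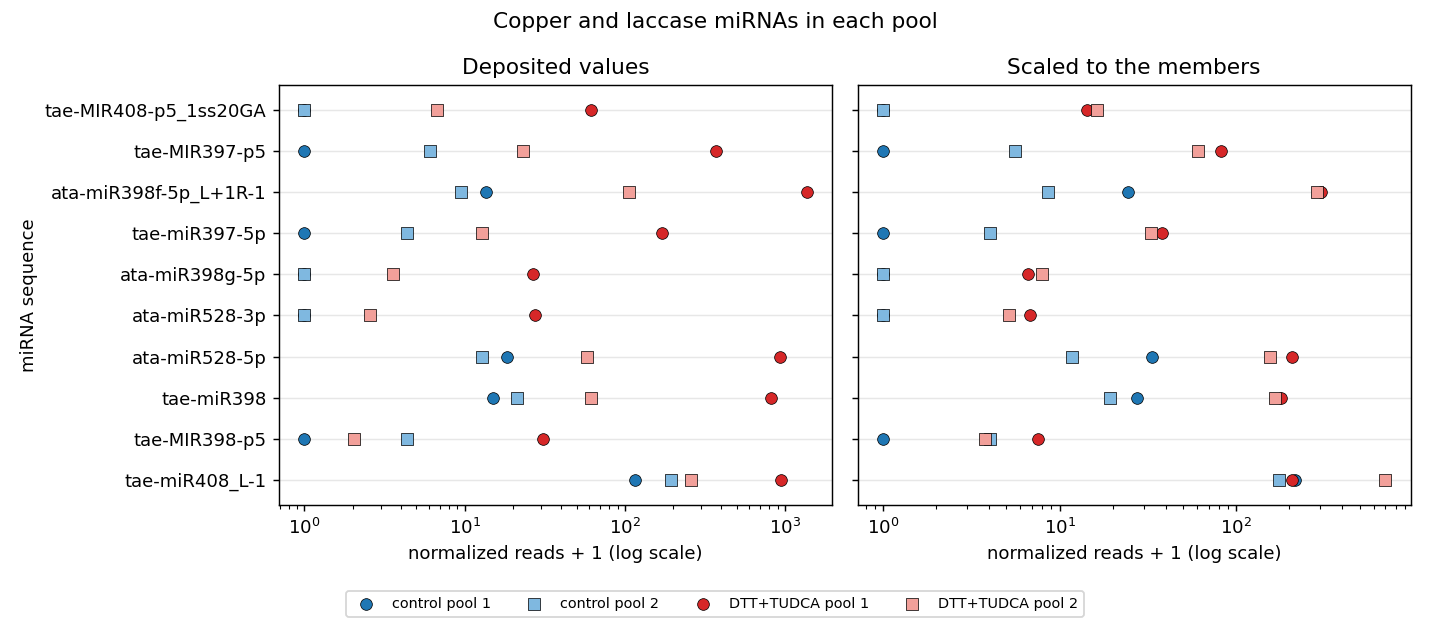
The 10 copper and laccase sequences in the 4 pools, as normalized reads plus 1 on a log scale, deposited (left) and scaled to the 184 sequences (right). Symbols at 1 are listed zeros, where the control pools cover each other, and after scaling the red symbols of tae-miR398 sit at 178 and 165 before the 1 is added.

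A level within a pool does not depend on the scaling of the pools, but it does depend on the reference. As a reference the most abundant sequence of the wheat-lineage young list, tae-miR9674b-5p, was taken after the values were seen. It was at 3403 and 6096 normalized reads in control, against 22002 and 1886 with DTT+TUDCA. It shares the excess in DTT+TUDCA pool 1, so close DTT+TUDCA pools are partly built in for sequences with that excess. ata-miR396e-5p, of the 18, had 4877 and 64470 per 1000 reads of it with DTT+TUDCA. A reference among the 18 would give other levels. For every 1000 reads of tae-miR9674b-5p, tae-miR398 had 4.15 and 3.34 in control, 21.8 and 21.7 with DTT and 36.9 and 32.3 with DTT+TUDCA. On this reference the 3 treatments did not overlap, with DTT between the others. As deposited, tae-miR398 was at 78.4 and 148 with DTT and at 812 and 60.8 with DTT+TUDCA, and those pools overlapped. ata-miR398f-5p_L+1R-1 had 3.69 and 1.39 in control, 26.5 and 40.8 with DTT and 62.2 and 55.8 with DTT+TUDCA, in the same order. ata-miR528-5p had 5.07 and 1.95, then 20.4 and 29.9, then 42.5 and 30.4, and the last pools of DTT and DTT+TUDCA nearly touched. tae-miR408_L-1 had 33.7 and 31.7 in control, 69.0 and 34.9 with DTT and 42.7 and 137 with DTT+TUDCA, with no such closeness between pools. Per 1000 reads of the whole wheat-lineage young list, tae-miR398 was at 1.42 and 0.734 in control, 7.48 and 4.29 with DTT and 8.76 and 9.22 with DTT+TUDCA.

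tae-miR5200, which in the grass Brachypodium represses FT genes of flowering, was lower with DTT+TUDCA relative to the other sequences. It was at 98.9 and 210 normalized reads in control, against 178 and 14.4 with DTT+TUDCA, with overlapping pools and a 1.60-fold lower sum as deposited. Scaled, it was at 185 and 190 in control, against 39.0 and 39.1 with DTT+TUDCA, 4.75-fold lower on the sums. It was between 4.70-fold and 4.81-fold lower when any 1 pool was left out. Those fits kept the factors of all 4 pools. The ratio between its DTT+TUDCA pools, 11.6, lies near the median of 12.7 for the 184 sequences. The narrow range is therefore largely built in by the scaling. The deposited log2 ratio of -0.68 ran from -3.38 without DTT+TUDCA pool 1 to 0.20 without pool 2. Per 1000 reads of tae-miR9674b-5p it had 29.1 and 34.5 in control, 7.28 and 10.4 with DTT and 8.09 and 7.66 with DTT+TUDCA. The DTT and DTT+TUDCA pools overlapped each other on this measure and lay below control. The opposite arm of the precursor, tae-MIR5200-p5, was at 4.71 and 10.2 in control, against 10.7 and listed 0 with DTT+TUDCA. Scaled, it was 8.82 and 9.17 in control against 2.34 and 0. These are the only 2 sequences of the list of grass MADS-box and FT regulators, and the other family of that list, miR444, had no wheat or Aegilops name here.

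**Figure D4:**
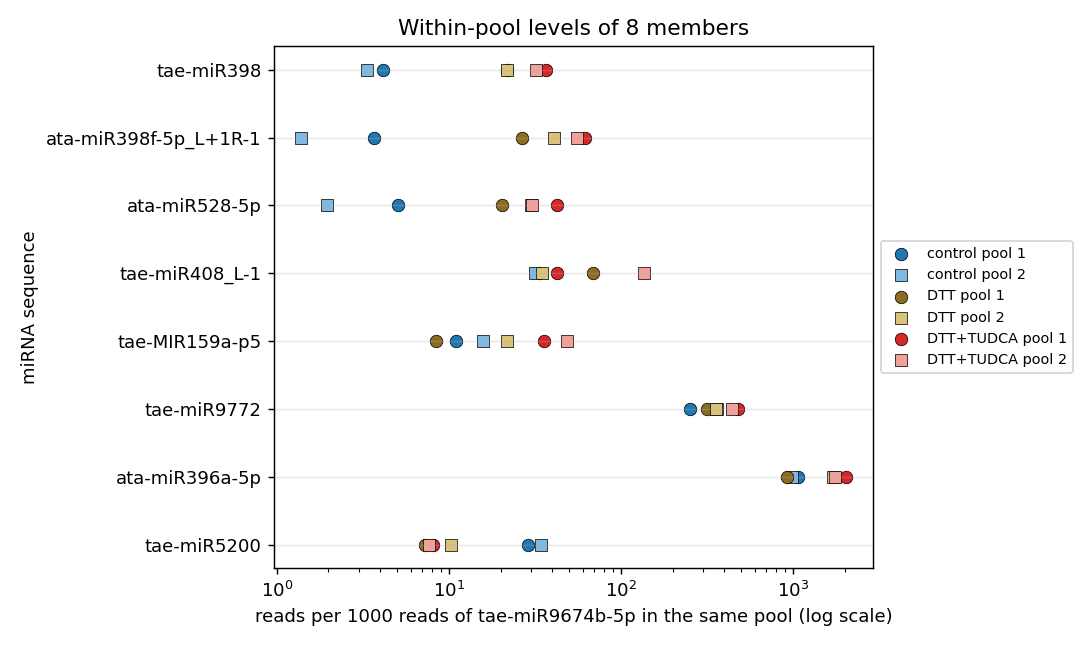
Reads per 1000 reads of tae-miR9674b-5p in the same pool (log scale) for 8 sequences in the 6 pools. tae-miR398 lies at 3.34 to 4.15 in control, 21.7 to 21.8 with DTT and 32.3 to 36.9 with DTT+TUDCA, while tae-miR5200 lies at 29.1 to 34.5 in control and 7.28 to 10.4 in the other pools.

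The miR169 family regulates NF-YA factors, and its direction depended on the scale. Of 13 names, 10 passed the floor. As deposited 2 were higher and 1 lower, with a median log2 ratio of 0.24, and after scaling 1 was higher and 4 lower at 2-fold (1 of them, ata-miR169e-5p, is among the 18), with a median log2 ratio of -0.90 beside 0.17 for all 184 sequences. ata-miR169h-3p_L-1 was the only one of the 184 that was 2-fold lower as deposited, at 18.8 and 30.5 in control and 18.1 and 2.06 with DTT+TUDCA. Those values stand for 12 and 18 control reads and 17 and 4 DTT+TUDCA reads. After scaling it stood at 35.3 and 27.5 and then 3.97 and 5.58, 6.05-fold lower with pools apart by 4.93-fold. ata-miR169i-5p was at 211 and 162 scaled in control and 36.8 and 132 with DTT+TUDCA, 2.21-fold lower with the nearest pools 1.23-fold apart. ata-miR169a-5p was low throughout, at 7.85 and 8.49 in control and 14.9 and listed 0 with DTT+TUDCA as deposited. The 1 higher sequence, ata-MIR169g-p3, was listed at 0 in both control pools and was at 25.6 and 3.09 with DTT+TUDCA. ata-miR169e-5p, of the 18, was lower in both DTT+TUDCA pools as deposited, at 274 and 181 against 401 and 390, a 1.74-fold lower sum.

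The growth and development families held most of the reads. Of the growth-regulating factor list, 6 of 8 names passed the floor, and 3 were 2-fold higher and 0 lower as deposited. ata-miR396e-5p was lower in both DTT+TUDCA pools, 1.51-fold on the sums, and ata-miR396c-5p, at 29829 and 25467 and then 30972 and 44726, was 1.37-fold higher with pools that just missed each other. ata-miR396a-5p was 4.95-fold higher on sums that came from DTT+TUDCA pool 1. After scaling it stood at 6865 and 5451 in control and 9834 and 8924 with DTT+TUDCA, 1.52-fold higher with pools apart by 1.30-fold.

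In the GAMYB and TCP list, 3 of 4 names passed the floor. tae-miR319 was at 31439 and 19831 in control, against 15735 and 14877 with DTT+TUDCA, a 1.67-fold lower sum with pools that did not overlap. tae-miR159a_R-1 had overlapping pools, at 1507 and 1851 and then 4234 and 1252. Its passenger tae-MIR159a-p5 was at 37.7 and 96.7 and then 788 and 91.3. Within a pool, the guide was 40.0 and 19.1 times the passenger in control and 5.37 and 13.7 times with DTT+TUDCA. This ratio needs no scaling, and the control and DTT+TUDCA pools did not overlap. Per 1000 reads of tae-miR9674b-5p the passenger had 11.1 and 15.9 in control, 8.44 and 21.9 with DTT and 35.8 and 48.4 with DTT+TUDCA.

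All 10 names of the SPL and phase-change list passed the floor, with 5 higher and 0 lower as deposited and 1 and 0 after scaling. ata-miR172b-3p, its most abundant sequence, was at 24853 and 15397 in control, against 13265 and 19886 with DTT+TUDCA, with overlapping pools. ata-miR172c-3p was lower in both DTT+TUDCA pools, at 823 and 919 against 1318 and 1148, a 1.42-fold difference of sums. ata-miR156a-5p was 1.33-fold higher, at 2511 and 1952 against 1486 and 1864. Its passenger ata-miR156a-3p followed DTT+TUDCA pool 1, at 377 and 32.8 against 48.1 and 131. The sums of these 3 guides differed by less than 2-fold.

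The auxin list passed with 11 of 16 names, of which 5 were higher and 0 lower as deposited and 3 and 0 after scaling, of which ata-miR167a-5p and tae-miR167b_R+1_2ss9AC21AC are among the 18. ata-miR167a-5p was 1.59-fold higher on the sums, with control at 20029 and 18306 and DTT+TUDCA pool 1 at 20386, just above. tae-miR160 was at 9634 and 9743 and then 9673 and 13412, and ata-miR390-5p, which starts the tasiRNAs that regulate auxin response factors, at 3957 and 3637 and then 3310 and 6721. ata-miR393-5p_L-1R+1, which targets auxin receptors, was at 687 and 1050 and then 4303 and 561, and 1.10-fold higher after scaling. ata-miR167b-3p was at 0 listed and 5.09 in control, against 85.2 and 10.8 with DTT+TUDCA. Scaled, its DTT+TUDCA pools stood at least 4.08-fold above control pool 2, which rests on 3 reads. This sequence too could pass the floor only through DTT+TUDCA.

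The remaining conserved lists gave few calls after scaling. In the NAC list 5 of 8 names passed, with 3 higher as deposited and 1 after scaling, the passenger tae-MIR164-p3, which had 2 reads in the control pools together. The other 4 of these lists had 0 higher and 0 lower after scaling. As deposited 4 of 5 HD-ZIP III sequences were higher, 1 of 3 of GRAS, 2 of 2 of silencing machinery and 2 of 2 of sulphate and phosphate, with 0 lower in each. ata-miR168-5p, which targets ARGONAUTE1, was at 138 and 110 in control and 131 and 138 with DTT+TUDCA on the scaled values, 1.08-fold apart on the sums. As deposited it was at 73.8 and 122 and then 595 and 50.9. The unscaled difference between the DTT+TUDCA pools was 11.5-fold. tae-miR395a_L-1 and ata-miR399a-3p, of families that answer to sulphate and phosphate supply, were each under 22 normalized reads in every pool.

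**Figure D5:**
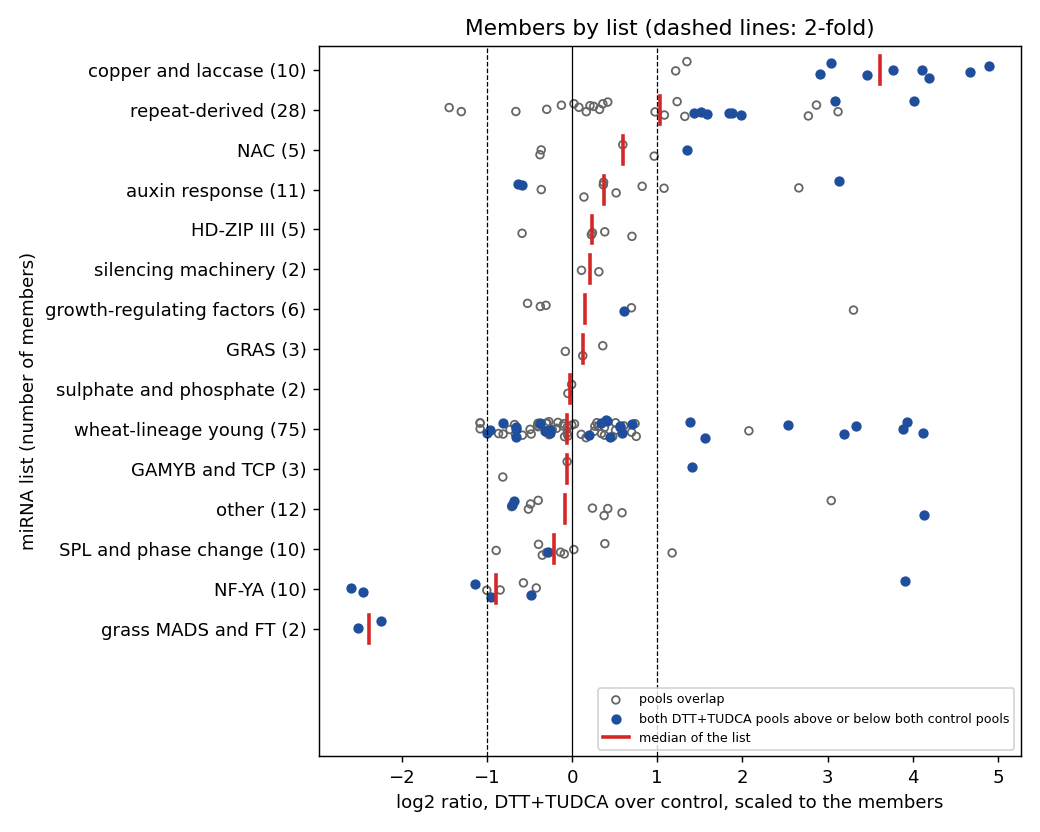
Log2 ratio of DTT+TUDCA over control after scaling to the 184 sequences, 1 point per sequence, by list, with red bars at each list's median and filled points where the pools did not overlap. Ratios of sequences with few or no control reads depend on the 1 added to each sum, and the 4 copper and laccase sequences with at least 20 control reads lie between 1.22 and 4.19.

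The wheat-lineage young list, families known mainly from wheat and its relatives, was the largest, with 75 of 106 names past the floor. As deposited 65 were higher and 0 lower (background 41.4% and 6.05%). After scaling 9 were higher and 4 lower (background 21% and 11.6%). Among the 49 with at least 20 control reads 1 was higher and 1 lower, with a median log2 ratio of -0.11. tae-miR9774_L+2, its most abundant 24-base sequence, was at 2936 and 7069 scaled in control, against 4560 and 3520 with DTT+TUDCA, inside the span of control. tae-miR9772 was at 860 and 2211 and then 10494 and 839 as deposited. After scaling it stood at 1611 and 1992 and then 2301 and 2269, 1.27-fold higher with pools that did not overlap. tae-miR9662a-3p was at 1484 and 1221 and then 1164 and 1349 scaled, with overlap.

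Of the 4 miR9653 sequences, 2 were 2-fold higher after scaling, both from low levels in control, and 2 were not. tae-miR9653b_R+1 was at 3.14 and 3.39 in control, 2 reads each, and at 144 and 9.28 with DTT+TUDCA. Scaled, that is 5.88 and 3.06 against 31.5 and 25.1. tae-MIR9653a-p5 was listed at 0 in both control pools and was at 49.0 and 2.06 with DTT+TUDCA. At the lower end, tae-MIR9655-p5_1ss1CT was at 746 and 1481 scaled in control and 652 and 460 with DTT+TUDCA, 2.00-fold lower with the nearest pools 1.14-fold apart.

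The repeat-derived list, families whose hairpins resemble transposon repeats, had 28 of 45 names past the floor. As deposited 26 were higher and 0 lower (background 41.4% and 6.05%), and after scaling 14 and 2 (background 21% and 11.6%). The floor favours higher calls among sequences with few control reads. In the control pools 5 of the 28 were listed at 0. Only 2 of the 28 had 20 control reads or more, and neither was called after scaling. tae-miR1122b-3p_1ss11GT was at 3.14 and 3.39 in control and 104 and 5.67 with DTT+TUDCA. tae-MIR1137a-p3_1ss8CT was at 6.28 and 6.79 and then 180 and 4.98. In this list 8 sequences are 24 bases long, the length typical of siRNAs of repeats, and 19 are 21 bases long.

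Among sequence features, the gap between the DTT+TUDCA pools was compared by length. The median ratio of pool 1 to pool 2 was 12.0 for the 124 sequences of 21 bases, 17.4 for the 23 of 22 bases and 29.8 for the 11 of 24 bases. The 24-base median is that of a sequence listed at 0 in pool 2, so it depends on the 1 added to each value. Of these 11, 8 belong to the repeat-derived list, so length and list cannot be told apart here. Sequences of 21 bases made up 76.3% and 93.9% of the reads of the 184 sequences in DTT+TUDCA pools 1 and 2, and 93.0% and 86.4% in those of control. The median scaled log2 ratio was 0.20 for 21 bases, 0.11 for 22 and 0.42 for 24. First base U (T in the table), typical of ARGONAUTE1 guides, was found in 107 sequences, of which 18 were higher and 7 lower after scaling. First base A was found in 34, of which 11 were higher and 3 lower. First base C was found in 18, with 7 higher and 2 lower, and G in 25, with 7 higher and 0 lower. The background over all entries was 21% higher and 11.6% lower. Of the 58 exact registered forms 77.6% were 2-fold higher in DTT+TUDCA pool 1 than in pool 2. For the 47 changed forms this was 91.5%, and for the 79 forms new to the precursor 98.7%. In control pool 1 the exact forms summed to 381834 normalized reads and the new forms to 2480. By level, 38 of 38 sequences with a mean under 10 had this excess, and 2 of 10 with a mean of at least 10000. Form and level cannot be told apart here.

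Arms of 1 precursor gave 32 pairs with both sequences above 0 in all 4 pools, in which the ratio of the more to the less abundant needs no scaling. With DTT+TUDCA the ratio lay above both control values in 5 pairs, below them in 5 and overlapping for 22. The order of 4 pools alone can set pairs apart in both directions, and no share over other entries was taken. Several pairs also share ata-miR156a-5p. The counts are therefore not read as a change, and single pairs are given for their values only. Beside miR159, tae-miR9661-5p_1ss14GA was 3.56 and 2.45 times tae-MIR9661-p3 in control and 8.37 and 7.86 times with DTT+TUDCA. Its partner stood on 9 and 11 reads in control and 7 in DTT+TUDCA pool 2. tae-miR9662a-3p was 45.9 and 42.1 times tae-MIR9662b-p5_1ss9CG in control and 26.1 and 34.5 times with DTT+TUDCA. tae-miR9774_L+2 was 71.4 and 101 times tae-MIR9774-p5 in control and 64.4 and 31.6 times with DTT+TUDCA. For the pair of ata-miR168-5p and ata-miR168-3p the ratio was 1.21 and 1.65 in control and 1.69 and 0.925 with DTT+TUDCA, with overlap.

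The 12 sequences outside all lists gave 9 higher and 0 lower as deposited and 2 and 0 after scaling. The most abundant, tae-miR7757-5p_1ss2TC, was at 7309 and 11256 scaled in control, against 8425 and 4825 with DTT+TUDCA, with overlapping pools. ata-miR394-5p, which targets an F-box gene of leaf shape, was lower in both DTT+TUDCA pools as deposited, at 9594 and 8466 against 13860 and 10778, a 1.36-fold difference of sums. The phasiRNA trigger list had 1 name, and it did not pass the floor. Of the 77 names under the floor, 2 were listed at 0 in all 4 pools. At the edge of the floor, tae-MIR1133-p3_2ss10TC21GC was just inside with a sum of 21.3, and tae-MIR6197-p3 just outside with 19.3.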

How the data were processed

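Small RNA libraries of 3 leaf samples (control, DTT, DTT+TUDCA), 2 pools each, were made with a TruSeq kit and sequenced in 50-base single reads, per the labels' protocols. The authors deposited 1 table of signal values, namely normalized reads per sequence, per the file headers. The sources used here do not give the aligner, counter, filters or normalization rule. Analyses used Python 3.11.15, pandas 2.3.3 and numpy 2.4.6. Of 279 rows with wheat or Aegilops names among 1969, distinct sequences were kept, with a floor of 20 over 4 pools. Ratios are log2 of summed pools with a pseudocount of 1, called at 2-fold. Median-of-ratios factors over 126 sequences gave the scaled values. Implied reads are values divided by the pool's step, and between 94.6% and 97.1% of values above 0 were whole within 0.01 reads. Of the 184 sequences, 8 share their 4 values with another. Counting intervals ignore that reads carry no molecular identifiers. Because the values are normalized, the comparison planned for such values was used, with no count test. The steps were tested on simulated pools. Pools of a simulated treatment differed only by counting noise, or by 1 factor shared by all sequences. A gap whose size differs between sequences, as between the DTT+TUDCA pools, was not simulated. The members, the 16 lists and the rules were chosen with earlier results of these data known. Names could be given to sequences 2-fold apart with pools that did not overlap (deposited or scaled), to the 3 most abundant of each list, the 5 most abundant of all, the 5 with the largest ratio between DTT+TUDCA pools, and the arm pairs. ata-miR167b-5p, ata-miR390-5p and tae-MIR398-p5 fall outside this rule and were named after their values were seen, as was tae-MIR6197-p3 at the edge of the floor.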

Additional observations from a re-analysis of the deposited data

How the results depend on the processing

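No paired analysis was possible because each treatment is 1 sample whose pools were treated as repeat runs, and no result comes from a test. In every fit that leaves out 1 pool, deposited or scaled, pools apart compares 1 pool with 2. That is an easier rule than 2 against 2, so those counts are not set against the others. As deposited, 138 sequences were higher and 1 lower, 23 and 1 with pools apart. Scaling to the 184 sequences (the members) gave 43 higher and 12 lower, 29 and 6 with pools apart, and a median of 0.17. Equal totals over the members gave 2 lower. With no floor 5 were lower, 2 with pools apart. A floor of 100 gave 77 higher and 0 lower, 10 and 0 with pools apart. A 1.5-fold limit gave 7 lower, 5 with pools apart. The mean of the log2 values gave 81 higher and 4 lower. Exact registered forms alone gave 38 higher and 0 lower, 8 and 0 with pools apart, and wheat names alone 0 lower, 0 with pools apart. Leaving out 1 pool at a time gave 21 to 159 higher, 0 to 96 lower, 21 to 159 higher with pools apart, 0 to 76 lower with pools apart, and a median of -1.10 to 2.60. The lowest median and the 96 lower came without DTT+TUDCA pool 1, the 159 without DTT+TUDCA pool 2, and 52 were higher with pools apart without control pool 2.

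Among the scaled counts (43 and 12, 29 and 6 with pools apart), no floor gave 77 higher and 20 lower. A floor of 100 gave 14 and 4, 11 and 3 with pools apart. A pseudocount of 5 gave 6 lower. A 1.5-fold limit gave 32 lower, 15 with pools apart. The mean of the log2 values gave 20 lower. Exact forms alone gave 12 and 4, 9 and 3 with pools apart, and wheat names alone 3 lower with pools apart. Leaving out 1 pool, with the factors of all 4 pools kept, gave 40 to 61 higher and 17 to 35 lower. With pools apart these fits gave 32 to 48 higher and 17 to 30 lower.

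Under scaling to the members the log2 ratio of these named sequences, called higher as deposited, was below 0: ata-miR156a-3p (-0.28), ata-miR164a-5p (-0.38), ata-miR399a-3p (-0.0045), tae-miR395a_L-1 (-0.049), tae-miR7757-5p_1ss2TC (-0.49), tae-miR9662a-3p (-0.11), tae-miR9674b-5p (-0.26), tae-miR9774_L+2 (-0.31). Over the fits that leave out 1 pool, the log2 ratio ran below 0 without DTT+TUDCA pool 1 for ata-miR156a-3p (-1.44 to 2.08), ata-miR164a-5p (-1.22 to 1.95), ata-miR166c-3p (-0.52 to 2.37), ata-miR167b-5p (-1.09 to 3.004), ata-miR168-3p (-0.30 to 2.37), ata-miR168-5p (-0.94 to 2.60), ata-miR393-5p_L-1R+1 (-0.63 to 2.31), ata-miR396a-5p (-0.56 to 3.21), ata-miR399a-3p (-1.28 to 2.81), ata-miR5168-3p (-0.86 to 2.83), tae-MIR1137a-p3_1ss8CT (-0.36 to 4.68), tae-MIR164-p3 (-0.10 to 4.70), tae-MIR398-p5 (-0.52 to 4.99), tae-MIR9662b-p5_1ss9CG (-0.76 to 3.01), tae-MIR9774-p5 (-0.27 to 3.02), tae-miR395a_L-1 (-0.81 to 1.80), tae-miR7757-5p_1ss2TC (-2.20 to 2.36), tae-miR9661-5p_1ss14GA (-0.75 to 3.23), tae-miR9662a-3p (-1.11 to 2.30), tae-miR9674b-5p (-1.33 to 2.21), tae-miR9772 (-0.87 to 2.77), tae-miR9774_L+2 (-1.85 to 2.82). The cause was not tested. The copper list kept 10 of 10 higher under each whole-table scaling and 9 to 10 in the scaled fits without 1 pool, an alternative chosen after seeing the data, like the levels within a pool. Of those 10 copper sequences, 6 could pass the floor only with a higher DTT+TUDCA sum, so that count was partly fixed in advance. With 1 sample per treatment, no value carries an error between plants, and few control reads limit the folds of low sequences.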
